A study of Mus musculus with 6 samples.

Results

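Excitation-contraction coupling joins the electrical signal at the surface of a muscle fibre to calcium release inside it. The 10 genes described here encode its core parts: the voltage-sensing calcium channel subunits Cacna1s, Cacnb1 and Cacng1, the release channel Ryr1, the calcium pumps Atp2a1 and Atp2a2, the luminal calcium buffers Casq1 and Casq2, and the junctophilins Jph1 and Jph2. They were taken as a listed set of gene symbols, and each was found on an array row that names a single gene. They are 10 of 18820 genes so named, and 10 of the 10 lay above the filter on dim genes that left 11292 genes for testing.

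The arrays come from C2C12, an immortalized mouse myoblast line whose cells fuse into multinucleated myotubes when serum is lowered. All cells were kept for 6 days in 2% horse serum, were then transfected with an LNA oligonucleotide, a short antisense strand with locked sugars, at 50 nM, and were collected 24 h later on day 7. In the silenced group (3 arrays) this was an inhibitor of miR-382-5p, and in the control group (3 arrays) it was Negative Control A. The series design asks how gene expression differs when this microRNA is silenced. Both groups are a single cell line. The labels leave unsaid whether replicates came from different cultures, and p-values here therefore reflect just the spread among these samples, which may be technical.

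In skeletal muscle, an action potential runs down the transverse tubule, where the dihydropyridine receptor senses the voltage. Its pore-forming subunit is Cacna1s. The receptor acts directly on the ryanodine receptor Ryr1 in the facing membrane of the sarcoplasmic reticulum, which opens and lets stored calcium out to the myofilaments. SERCA pumps return the calcium to the store, calsequestrin holds it there in loosely bound form, and junctophilins keep the store membrane and the tubule close together. The system is assembled during myotube differentiation.

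The silenced microRNA is shown because it defines the contrast. Its mature strand lies on chr12:109733781-109733802 (GRCm38.p6, plus strand, RefSeq), and capitals mark the seed, bases 2 to 8, through which a microRNA mainly pairs with its targets.
mmu-miR-382-5p: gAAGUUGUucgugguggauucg
Of the 1679 mature mouse names in the RefSeq table, 1 carries this seed. Whether transcripts of the 10 genes hold a match to it is not analysed here.

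Mean levels were higher with the inhibitor than with the control oligonucleotide for 9 of the 10 genes and lower for 1. None of the 10 reached an adjusted p under 0.05 in limma (the smallest was 0.871). The same test called 0 of 11292 tested genes, a background of 0%, with a smallest adjusted p of 0.487. At an unadjusted limma p under 0.05, 2 of the 10, Cacna1s and Atp2a2, were higher and 0 were lower, against 2.83% of tested genes that were higher and 1.97% that were lower. In a second fit with a block on replicate number, 3 of the 10 were higher at that level, Atp2a1 being the third, against 5.77% of tested genes, and no adjusted p of a member was under 0.464. The median difference of the 10 genes, silenced minus control, was 0.17 on the log2 scale, against a median of 0.0089 over all tested genes. The members were chosen with earlier results of these arrays known, so these counts describe the set and are no independent support for its direction. Values below are log2 levels from RMA, a method that corrects for background, brings all arrays to 1 distribution and combines each row's probes. Levels of different probe sets are not comparable, so values are compared between arrays and groups and not between genes. All errors of levels are SD with n = 3 per group.

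**Figure D1:**
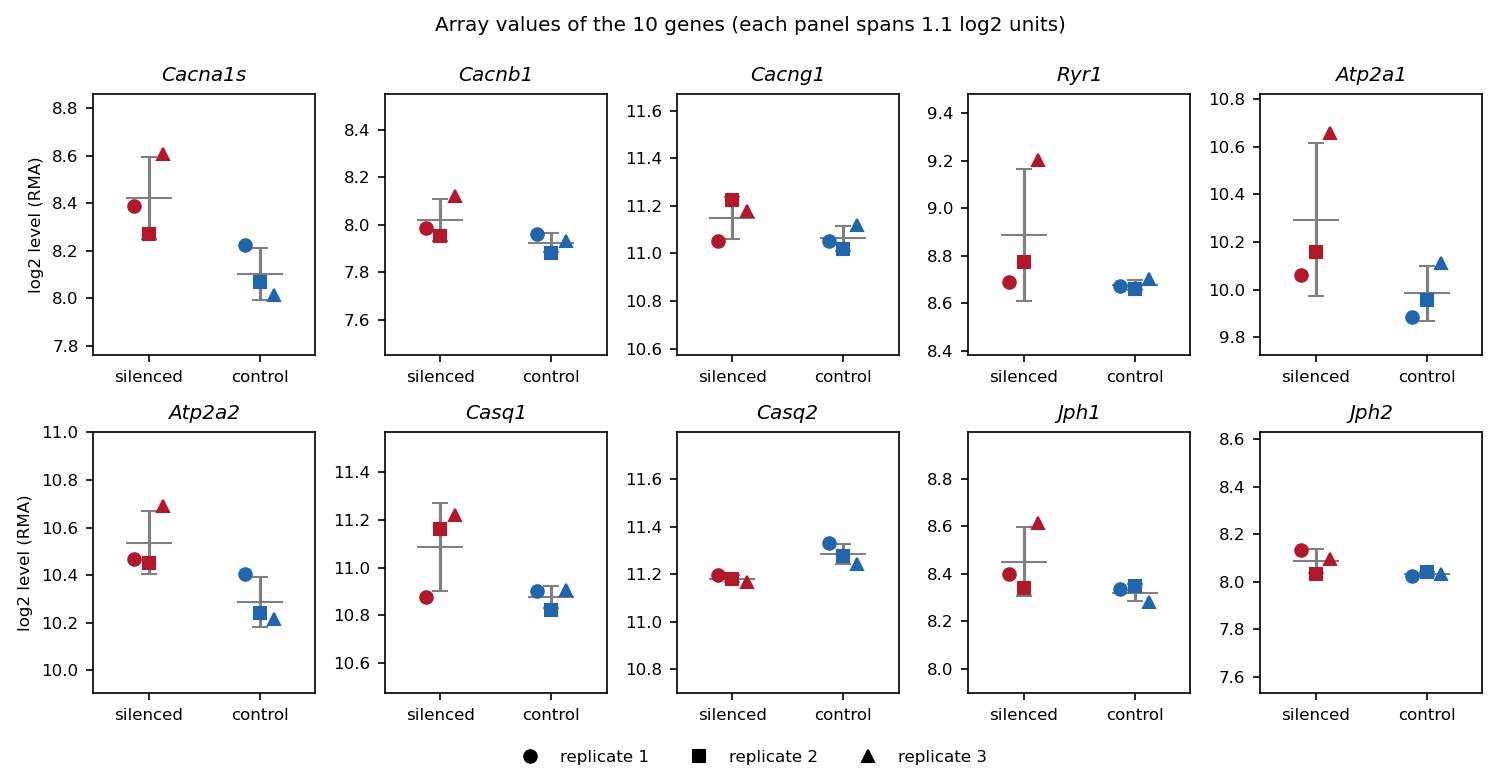
Log2 level (vertical axis, RMA units, 1.1 units per panel) of each of the 10 genes on every array, silenced to the left and control to the right, with marker shapes for replicate numbers 1 to 3 and grey bars for mean ± SD. The triangle of silenced replicate 3 is the highest point in 7 of the 10 panels, and the Casq2 panel is the 1 panel in which the 3 silenced arrays lie below the 3 control arrays.

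Cacna1s, the pore and voltage sensor of the dihydropyridine receptor, read 8.39, 8.27 and 8.61 in silenced arrays 1, 2 and 3, against 8.22, 8.07 and 8.01 in control arrays 1, 2 and 3. The groups did not overlap, although only 0.044 separated the lowest silenced array from the highest control array. The means were 8.42 ± 0.17 in silenced and 8.10 ± 0.11 in control arrays, a difference of 0.32 ± 0.11 (SE), or 1.25-fold (limma, adjusted p = 0.871). Its 95% interval was 0.057 to 0.58, which covers this gene alone and makes no allowance for the number of genes tested.

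Cacnb1, the cytoplasmic beta subunit that helps bring the channel to the membrane, read 7.99, 7.95 and 8.12 in silenced arrays, against 7.96, 7.88 and 7.93 in control arrays. The groups overlapped slightly, since control array 1 lay just above silenced array 2. The difference was 0.097 (95% interval -0.094 to 0.29), and 0.047 without silenced replicate 3. Cacng1, the gamma subunit, a membrane protein that restrains channel activity, read 11.05, 11.22 and 11.18 in silenced arrays, against 11.05, 11.02 and 11.12 in control arrays. Silenced array 1 lay within the control range and the other two above it. The difference was 0.088 (95% interval -0.11 to 0.28), with 0.14 when silenced replicate 1 was left out and 0.051 when silenced replicate 2 was.

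Ryr1, the calcium release channel, read 8.69, 8.77 and 9.20 in silenced arrays, against 8.67, 8.66 and 8.70 in control arrays. A single silenced array, number 3, stood well above the rest, and silenced array 1 lay within the control range. The means were 8.89 ± 0.28 and 8.68 ± 0.02 in silenced and control arrays, a difference of 0.21 ± 0.14 (SE), or 1.16-fold (limma, adjusted p = 0.871). Without silenced replicate 3 the difference was 0.053.

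Atp2a1, the SERCA1 pump of fast fibres, read 10.06, 10.16 and 10.66 in silenced arrays, against 9.89, 9.95 and 10.11 in control arrays. Every silenced array was above the control array of its own number, but silenced array 1 lay below control array 3. The difference was 0.31 ± 0.16 (SE), or 1.24-fold (limma, adjusted p = 0.871), and it was 0.13 without silenced replicate 3. Atp2a2, the SERCA2 pump, whose isoforms serve slow and cardiac muscle and most other cells, read 10.47, 10.45 and 10.69 in silenced arrays, against 10.41, 10.24 and 10.21 in control arrays. The groups did not overlap, with 0.045 between them. The difference was 0.25 ± 0.10 (SE), or 1.19-fold (95% interval 0.014 to 0.49; limma, adjusted p = 0.871).

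Casq1, the skeletal calsequestrin, read 10.88, 11.16 and 11.22 in silenced arrays, against 10.90, 10.82 and 10.91 in control arrays. Silenced arrays 2 and 3 lay above all control arrays, while silenced array 1 lay within the control range. The difference was 0.21 ± 0.11 (SE), or 1.16-fold (limma, adjusted p = 0.871). Casq2, the calsequestrin of cardiac and slow muscle that developing skeletal muscle also makes, read 11.20, 11.18 and 11.17 in silenced arrays, against 11.33, 11.28 and 11.24 in control arrays. It was the 1 gene of the 10 with a lower mean, and its groups did not overlap, with 0.048 between them. The difference was -0.10 ± 0.07 (SE), or 1.07-fold lower (95% interval -0.27 to 0.067; limma, adjusted p = 0.871).

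Jph1, the main junctophilin of skeletal muscle, read 8.40, 8.34 and 8.61 in silenced arrays, against 8.33, 8.35 and 8.28 in control arrays. Silenced array 2 lay within the control range. The difference was 0.13 (95% interval -0.092 to 0.35), and 0.0485 without silenced replicate 3. Its second probe set, which the annotation ties to the RefSeq transcript while the brighter one is tied to a cDNA clone, differed by 0.094. Jph2, the junctophilin shared by cardiac and skeletal muscle, read 8.14, 8.03 and 8.09 in silenced arrays, against 8.03, 8.04 and 8.03 in control arrays. Silenced array 2 lay within the narrow control range and the difference was 0.054 (95% interval -0.12 to 0.23), with 0.030 without silenced replicate 1 and 0.082 without silenced replicate 2. The dimmer second Jph2 probe set differed by -0.021, the opposite direction.

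**Figure D2:**
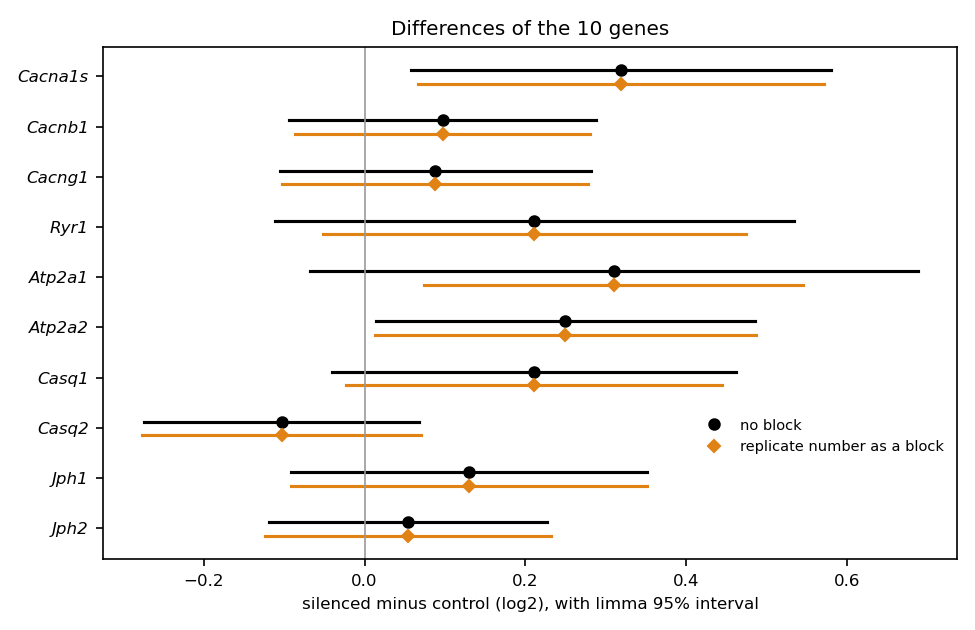
Difference between silenced and control arrays (horizontal axis, log2) for each of the 10 genes, as points with limma's 95% intervals, from the fit without a block (black circles) and from that with a block on replicate number (orange diamonds). In both fits the intervals of Cacna1s and Atp2a2 lie above 0, and that of Atp2a1 does so only with the block.

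Across the set, the groups did not overlap for 3 of the 10 genes. Cacna1s and Atp2a2 were higher in all silenced arrays, as were 6.94% of tested genes, and Casq2 was lower, as were 4.87% of tested genes. Within pairs of arrays with the same replicate number, 6 of the 10 genes (Cacna1s, Cacnb1, Cacng1, Ryr1, Atp2a1 and Atp2a2) were higher in all 3 pairs, against 19.7% of tested genes. These are the channel and pump genes, but the split from the others rests on small differences. In the pair numbered 1, Cacng1 differed by 0.0012, Ryr1 by 0.017 and Cacnb1 by 0.028. Casq1 was left out by -0.024 in that pair, and Jph1 and Jph2 by -0.0091 and -0.0079 in the pair numbered 2. Casq2 was lower in all 3 pairs, as were 15.8% of tested genes. A higher mean in silenced arrays was found for 52.7% of tested genes.

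The size of the differences varied with the replicate number. Within replicate numbers 1, 2 and 3 the median difference of the 10 genes was 0.045, 0.16 and 0.32, against 0.031, -0.0081 and 0.0094 over all tested genes. With sign counted, the pair numbered 3 gave the highest of the 3 differences for 7 of the 10 genes, against 30.3% of tested genes. Casq2 is among these 7 because its difference in pair 3 was the least negative, and so its smallest in size. In that pair, Casq1, Cacng1 and Jph2 did not have their highest difference. Cacna1s differed by 0.16, 0.20 and 0.59 in pairs 1, 2 and 3. Ryr1 differed by 0.017, 0.11 and 0.50, and Atp2a1 by 0.18, 0.20 and 0.55. Casq1 differed by -0.024, 0.34 and 0.31, and Jph1 by 0.065, -0.0091 and 0.33. Casq2 differed by -0.13, -0.098 and -0.078.

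**Figure D3:**
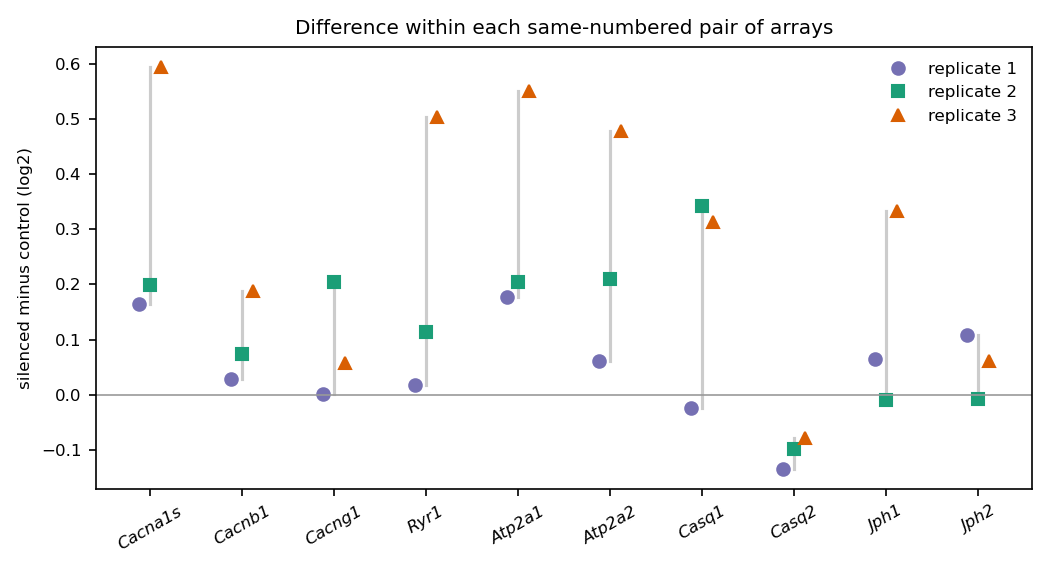
Difference between the silenced and the control array of the same replicate number (vertical axis, log2) for each of the 10 genes, with a marker per replicate number and grey lines spanning the 3 values. Replicate 3 lies highest for 7 genes and reaches 0.59 for Cacna1s, while all 3 markers of Casq2 lie below 0.

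Silenced replicate 3 was the array on which these genes stood out. It was the highest of the 6 arrays for 7 of the 10 genes, against 15.2% of tested genes, and its median deviation from the genes' own means was 0.23, against -0.012 and -0.0022 on silenced arrays 1 and 2. The control arrays 1, 2 and 3 had median deviations of -0.045, -0.11 and -0.057. The SD was larger among silenced than among control arrays for 9 of the 10 genes, Casq2 being the exception, against 55.1% of tested genes. Without silenced replicate 3 the median difference of the 10 genes was 0.064, and it was 0.22 without silenced replicate 1. Of the 10 genes, 0 passed the adjusted threshold in either case.

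The mean level of 10 myotube markers was also highest on that array. It read 10.74, 10.75 and 10.91 in silenced arrays 1, 2 and 3, against 10.72, 10.63 and 10.75 in control arrays 1, 2 and 3, and 10 of the 10 markers lay above the filter on dim genes. Of them, 9 had a higher mean in silenced arrays, 8 were highest on silenced replicate 3, and 0 passed limma's adjusted threshold. The mean of 7 markers of undifferentiated or cycling myoblasts was lowest there, with 7.52, 7.38 and 7.15 in silenced arrays, against 7.48, 7.47 and 7.31 in control arrays. This list was mixed, with 3 genes higher and 4 lower on average in silenced arrays. Mki67, Top2a and Cdk1 were lowest on silenced replicate 3, whereas Pax7, Myf5, Id1 and Id3 were not. However, Mki67, Top2a and Cdk1 fell from replicate 1 to 3 in both groups. Top2a, for example, read 9.73, 9.58 and 8.96 in silenced arrays, against 9.88, 9.61 and 9.30 in control arrays. Pax7 was higher in all silenced arrays than in any control array, and Id3 was lower in all of them. Of the 10 myotube markers, 3 (Mymk, Myh3 and Des) were higher in all silenced arrays and 0 were lower. Among all tested genes, 6.94% were higher and 4.87% lower in this way. The part of the myotube and myoblast markers in the differences of the 10 genes was not tested. In these bulk samples, more myotubes and more RNA of these genes per myotube cannot be told apart.

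Markers of other tissues lay below the filter in part, and their mean levels overlapped between the groups. Fibroblast markers, 5 of 6 of them above the filter, averaged between 7.54 and 7.94 in silenced arrays and between 7.57 and 8.05 in control arrays. Cardiac markers were checked because Casq2, Jph2 and Atp2a2 also serve the heart, and 3 of 5 lay above the filter, with Nppa and Myl7 below it. They averaged between 3.98 and 4.29 in silenced and between 4.11 and 4.25 in control arrays. Of the adipocyte markers 0 of 4 and of the osteoblast markers 1 of 3 lay above the filter. Adipocyte markers averaged at most 3.11 in silenced and 3.04 in control arrays, and osteoblast markers between 3.23 and 3.60 in silenced and between 3.53 and 3.67 in control arrays.

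The set holds 3 pairs of related genes, and each pair was compared through the difference of its log2 levels within an array. A constant offset in brightness between the probe sets cancels in the change of this difference between groups. Unlike responses of the probe sets to a change in RNA do not cancel. These comparisons were chosen after the values were seen. Casq1 minus Casq2 read -0.32, -0.017 and 0.054 in silenced arrays, against -0.43, -0.46 and -0.34 in control arrays. The groups did not overlap, and the balance lay 0.31 toward Casq1 in silenced arrays (exact 2-sided permutation test, p = 0.1, the smallest that 3 against 3 arrays allow, and 0.3 adjusted over the 3 pairs). That test moves arrays freely between replicate numbers. Within same-numbered pairs the balance moved the same way in 3 of 3, by 0.11, 0.44 and 0.39, and an exact test that flips the signs of the pairs gave p = 0.25, the smallest that 3 pairs allow.

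The pump pair showed no such separation. Atp2a1 minus Atp2a2 read -0.41, -0.29 and -0.031 in silenced arrays, against -0.52, -0.29 and -0.10 in control arrays, a difference of 0.060 (exact permutation test, p = 0.8, and 0.5 with sign flips within pairs). Jph1 minus Jph2 read 0.26, 0.31 and 0.52 in silenced arrays, against 0.31, 0.31 and 0.25 in control arrays, a difference of 0.076 (exact permutation test, p = 0.6, and 1 with sign flips within pairs). The groups overlapped in both cases, the adjusted p over the 3 pairs was 0.8 for both, and both differences fell below 0 without silenced replicate 3 (-0.046 and -0.0021).

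The starts of 4 of these genes are shown: the voltage sensor gene Cacna1s and the fast pump gene Atp2a1, with the largest differences, and the calsequestrin genes Casq1 and Casq2, with opposite signs. Each window runs from 250 bases before the RefSeq gene start to 50 after it (GRCm38.p6), and capitals mark CAGCTG, an E-box of the kind that myogenic bHLH factors such as MyoD bind.
Cacna1s, chr1:136052561-136052860, plus strand: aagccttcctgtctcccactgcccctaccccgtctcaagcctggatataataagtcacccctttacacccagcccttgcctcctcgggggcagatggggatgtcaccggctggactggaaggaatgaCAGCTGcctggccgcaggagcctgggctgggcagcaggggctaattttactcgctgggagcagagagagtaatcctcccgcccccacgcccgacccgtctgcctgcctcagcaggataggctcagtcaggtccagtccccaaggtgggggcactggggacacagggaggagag
Atp2a1, chr7:126463024-126463323, minus strand: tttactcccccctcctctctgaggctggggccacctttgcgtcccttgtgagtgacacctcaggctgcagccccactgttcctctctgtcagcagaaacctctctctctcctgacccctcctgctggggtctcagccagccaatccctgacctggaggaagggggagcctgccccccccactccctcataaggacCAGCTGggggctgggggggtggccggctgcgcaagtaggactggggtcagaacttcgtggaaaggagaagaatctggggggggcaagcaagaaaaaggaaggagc
Casq1, chr1:172219846-172220145, minus strand: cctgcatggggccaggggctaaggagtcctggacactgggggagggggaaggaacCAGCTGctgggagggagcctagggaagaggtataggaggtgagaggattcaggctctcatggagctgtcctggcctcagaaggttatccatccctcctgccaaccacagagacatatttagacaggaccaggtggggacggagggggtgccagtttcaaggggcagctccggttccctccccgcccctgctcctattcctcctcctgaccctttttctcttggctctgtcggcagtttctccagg
Casq2, chr3:102086165-102086464, plus strand: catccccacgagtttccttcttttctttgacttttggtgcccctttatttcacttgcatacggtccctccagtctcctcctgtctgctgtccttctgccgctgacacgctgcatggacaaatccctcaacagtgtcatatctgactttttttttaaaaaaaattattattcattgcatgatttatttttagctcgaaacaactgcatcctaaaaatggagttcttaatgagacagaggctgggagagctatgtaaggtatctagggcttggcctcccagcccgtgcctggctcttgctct
CAGCTG, which reads the same on both strands, begins 123 bases before the start of Cacna1s, 55 before that of Atp2a1 and 195 before that of Casq1, and these letters are not in the Casq2 window. The RefSeq table holds windows for 7 of the 10 genes (9 windows in all). Of these 7, 4 hold CAGCTG, Jph2 being the fourth, against 18.3% of 27025 genes and 16.3% of all 32851 windows. The general E-box CANNTG, which includes CAGCTG, is in windows of 6 of the 7 genes, Casq2 among them, and in 75.0% of all genes. A match is a description of the letters and shows no binding.

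Around these 10 genes, 77 other genes of calcium handling were described in 4 lists, 52 of them tested. None passed limma's adjusted threshold in either direction (smallest adjusted p = 0.871), and at an unadjusted p under 0.05 there were 2 that were higher and 0 that were lower, or 3.85% higher, near the 2.83% higher and 1.97% lower of all tested genes. With the inhibitor, 37 of the 52 (71.2%) were higher on average, against 52.7% of tested genes, and 15 were lower. Silenced replicate 3 was the highest array for 22 (42.3%), against 15.2% of tested genes. The groups did not overlap for 7 that were higher and 1 that was lower, against 6.94% and 4.87% of tested genes. The median difference of the 52 was 0.048.

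Partners of the triad, the junction of tubule and store, had 17 tested genes, 10 with a higher and 7 with a lower mean, and a median difference of 0.013. Dysf, whose product dysferlin takes part in membrane repair and lies near the tubules, read 6.87, 6.74 and 7.14 in silenced arrays, against 6.60, 6.69 and 6.44 in control arrays. Its groups did not overlap, and the difference was 0.34 ± 0.12 (SE) (limma, adjusted p = 0.871). Ryr3, a ryanodine receptor of developing muscle, differed by 0.15 ± 0.13 (SE). Stac3, the adaptor that the skeletal voltage sensor needs to work, differed by 0.080 (95% interval -0.13 to 0.29). Trdn, whose product triadin anchors calsequestrin near Ryr1, differed by -0.091 (95% interval -0.46 to 0.28). Calm2, a calmodulin gene, read 10.83, 10.91 and 10.94 in silenced arrays, against 10.98, 10.99 and 11.04 in control arrays, so that its groups did not overlap, with a difference of -0.11 ± 0.08 (SE). Cav3, the caveolin of muscle, differed by -0.13 ± 0.18 (SE).

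Genes of the store, its pump regulators and store-operated entry had 15 tested members, 11 with a higher and 4 with a lower mean, and a median of 0.084. The 3 Orai genes, which encode the surface channels that refill the store, did not share a direction. Orai1 read 5.56, 5.69 and 5.76 in silenced arrays, against 5.43, 5.55 and 5.47 in control arrays. Orai3 read 6.21, 6.13 and 6.34 in silenced arrays, against 6.09, 5.88 and 5.93 in control arrays. Neither overlapped between groups, and the differences were 0.18 ± 0.09 (SE) for Orai1 and 0.26 ± 0.10 (SE) for Orai3. Orai2 read 6.03, 6.31 and 6.43 in silenced arrays, against 6.20, 6.62 and 6.65 in control arrays, with overlap and a difference of -0.24 ± 0.16 (SE). The store sensor Stim1 differed by 0.092 (95% interval -0.16 to 0.34), the luminal protein sarcalumenin, Srl, by 0.22 ± 0.12 (SE), and the inositol trisphosphate receptor Itpr2 by -0.099 ± 0.218 (SE). Sln, the pump inhibitor sarcolipin, lay below the filter and was not tested, with 2.41 to 2.81 in silenced and 2.60 to 2.96 in control arrays. Tmem38a is not analysed here.

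Genes of surface excitability and calcium removal had 7 tested members, 5 with a higher and 2 with a lower mean, and a median of 0.047. Pvalb, the cytosolic calcium buffer parvalbumin of fast fibres, read 5.80, 5.81 and 6.60 in silenced arrays, against 6.19, 6.74 and 6.81 in control arrays. Every silenced array lay below its own-numbered control array, the groups overlapped, and the difference of -0.51 ± 0.25 (SE) did not pass (limma, adjusted p = 0.871). The inward rectifier channel Kcnj2 differed by -0.30 ± 0.26 (SE), its relative Kcnj12 by 0.11 ± 0.11 (SE) and the plasma membrane calcium pump Atp2b4 by 0.16 ± 0.12 (SE).

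Genes of calcium-dependent signalling had 13 tested members, 11 with a higher and 2 with a lower mean, and a median of 0.048. Mef2d, a transcription factor under calcium-dependent control, differed by 0.22 ± 0.14 (SE), and the calmodulin kinase subunits Camk2a and Camk2b differed by 0.20 ± 0.13 (SE) and -0.10 ± 0.12 (SE). Nfatc4, a transcription factor that calcineurin activates, differed by -0.0042 (95% interval -0.22 to 0.21). Single arrays weighed heavily in these lists. Of the 20 tested genes named from them, 16 had a difference that moved by over 1.5 times when 1 array was left out. Those of Trdn, Cav3, Itpr2, Camk2b and Nfatc4 changed sign. Mef2d differed by 0.058 without silenced replicate 1, Kcnj2 by -0.093 without control replicate 3 and -0.57 without silenced replicate 3, and Kcnj12 by 0.041 without control replicate 2 and 0.21 without control replicate 1. Stac3 differed by 0.0093, Ryr3 by 0.035, Stim1 by 0.028, Atp2b4 by 0.093 and Pvalb by -0.78 without silenced replicate 3. Srl differed by 0.14 and Camk2a by 0.083 without control replicate 2, Orai2 by -0.12 without silenced replicate 1, and Atp2b4 by 0.081 without control replicate 1. Orai1, Orai3, Dysf and Calm2 moved by less.

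**Figure D4:**
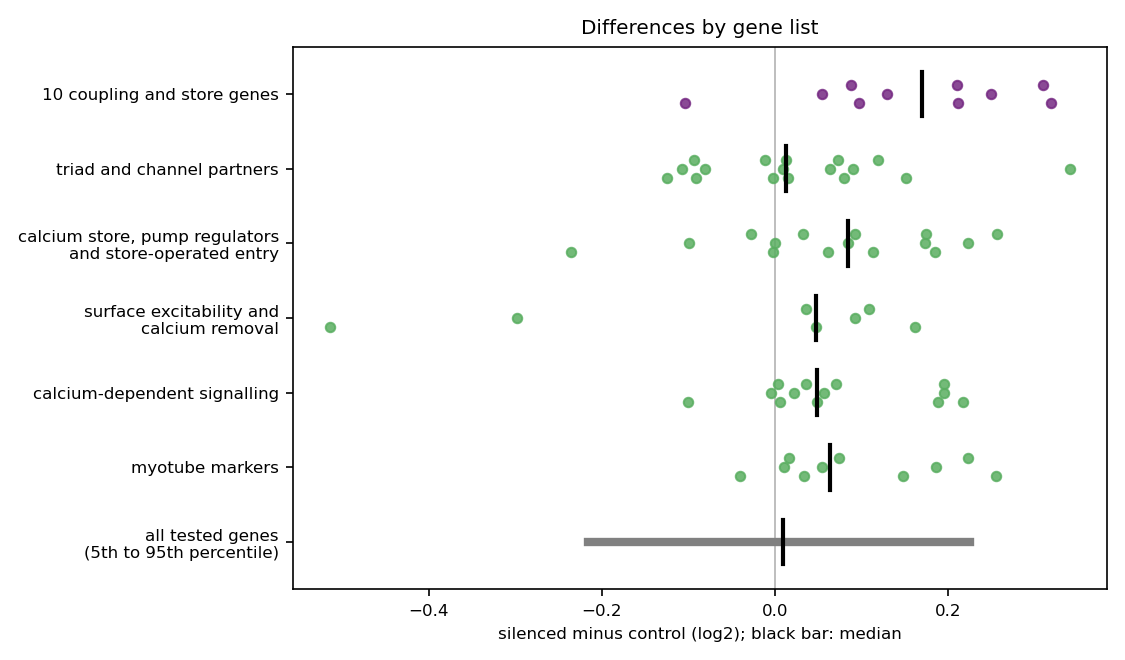
Difference between silenced and control arrays (horizontal axis, log2) for each tested gene, by list, with black bars at the medians and, at the bottom, the 5th to 95th percentile of all 11292 tested genes (-0.22 to 0.23). The 10 coupling and store genes have a median of 0.17, the other lists shown lie between 0.013 and 0.084, and Pvalb is the point at -0.51.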

How the data were processed

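The authors deposited log2 values, 35556 probe sets on 6 arrays, made with RMA per the submitters' processing notes, which state no version. RMA compresses differences of dim genes toward 0. Detection calls were not used. Precision is limited by how few arrays there are.

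Gene names came from the platform annotation (21218 probe sets with 1 gene, 1881 with several). The row with the highest mean over the 6 arrays was kept per gene, and genes above the 40th percentile of mean level (3.87) were tested. Silenced minus control was fitted with limma 3.58.1 in R 4.3.3 (lmFit, eBayes, 2-sided, no covariate), with Benjamini-Hochberg adjustment over 11292 genes and a threshold of 0.05. The fit was also run on simulated arrays with independent noise. These lack the shared deviations of same-numbered arrays described below, so that run does not check the fit under them. Intervals are 95%.

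Arrays that share a replicate number deviated together from their groups (correlations 0.55, 0.35 and 0.42 over tested genes). The numbers were therefore treated as pairs in the pair differences, the sign flips and the fit with a block, although no label states a pairing. Unless a block is named, the SE, intervals and p-values of single genes come from the fit without it and ignore the pairs. The replicate block, dim filter, normalization, probe set rule, variance model, array weights and each array were varied.

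The members and lists were chosen with earlier results of these data known. Named are all 10 members and, per pathway list, the 2 largest differences in each direction plus 6 preset genes, and the 5 genes nearest in array profile. Promoter and microRNA sequences are RefSeq's. Protein and transcript sequences were not used here.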

Additional observations from a re-analysis of the deposited data

How the results depend on the processing

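Neither any gene nor any of the 10 members passed the adjusted threshold under any alternative that was run (0 in each). With a replicate block, 0 of 11292 genes passed limma's adjusted threshold, and the smallest adjusted p of a member was 0.464. The median difference of the 10 genes was 0.17 in that fit, and the block changed no call at the adjusted threshold. Genes with an unadjusted p under 0.05 numbered 542, against 1168 with the block, 834 with no dim filter, 1109 with array weights, 1160 without both arrays numbered 1, and 272 to 828 when 1 array was left out. For the members that count was 2, against 3 with the block, with the varied variance model or without both arrays numbered 1. It was 4 with array weights, 1 with arrays centred on their medians and 0 to 4 when 1 array was left out. The median difference of the members ranged from 0.064 (without silenced replicate 3) to 0.22 when 1 array was left out. No member changed direction. Others turned. Atp2a1 minus Atp2a2 ranged from -0.048 (without control replicate 1) to 0.16 when 1 array was left out, with -0.046 without silenced replicate 3. Jph1 minus Jph2 ranged from -0.0021 (without silenced replicate 3) to 0.125. Trdn ranged from -0.22 to 0.052 (without silenced replicate 1), Cav3 from -0.24 to 0.074 (control replicate 1), Itpr2 from -0.30 to 0.097 (silenced replicate 1; 0.010 without control replicate 2), Camk2b from -0.20 to 0.011 (silenced replicate 2) and Nfatc4 from -0.077 to 0.052 (silenced replicate 1; above 0 also without silenced replicate 2 or control replicate 1). Nfatc4 was 0.051 with array weights and 0.071 without both arrays numbered 1. Casq1 minus Casq2 stayed between 0.24 and 0.43. The cause was not tested.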

Other observations

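The 5 genes whose deviations over the 6 arrays lay nearest to the mean profile of the 10 coupling and store genes were Herc1, Atp6v0a1, Dclk1, Cpne2 and Cpd, with root mean square differences of 0.022, 0.023, 0.026, 0.027 and 0.028 on the log2 scale. The members themselves lay between 0.041 (Jph1) and 0.15 (Atp2a1 and Casq2) from that profile. Atp6v0a1, a subunit of the vacuolar proton pump, read 9.21, 9.24 and 9.49 in silenced arrays, against 9.13, 9.12 and 9.15 in control arrays. Its highest value was on silenced replicate 3, which follows from the choice. The mean profile of the members was itself highest on that array (0.22). The 5 genes were picked for their likeness among 11292, over 6 arrays only, and none passed limma's adjusted threshold (adjusted p = 0.871 for each).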
